A study of Mus musculus with 11 samples.

Results

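The Serpina3 genes of the mouse are a cluster of serine protease inhibitors on chromosome 12, and 6 of the 14 Serpina3 genes and pseudogenes in the count table are described here: Serpina3b, Serpina3f, Serpina3g, Serpina3i, Serpina3m and Serpina3n. They were chosen by name because Serpina3b was lower in skin after early and after complete depletion of regulatory T cells (Tregs), so the values of Serpina3b are given without a test and those of its paralogues are compared with them. The samples were 11 whole-skin RNA libraries from neonatal Foxp3-DTR mice, a C57BL/6J strain in which the receptor for diphtheria toxin (DT) and GFP are knocked into Foxp3, so that the toxin kills Foxp3-expressing cells, in every tissue and not in skin alone. Controls carried the same allele and received PBS (PBS, n = 2). EarlyDT mice (the study's ΔETreg) received 30 ng/g DT on postnatal day (P) 6 and P8 and were taken on P9 (n = 3), LateDT mice (ΔLTreg) received it on P10 and P12 and were taken on P13 (n = 3), and FullDT mice (ΔTreg) received it on P6, P8, P10 and P12 and were taken on P13 (n = 3). The day on which each control mouse was taken is not given in the sources used here, and every library carries the same batch label. The study describes its controls as age-matched, on P9 for ΔETreg and on P13 for ΔLTreg, so the 2 PBS mice may differ in age.

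Each library held 23377571 to 34159435 gene counts. Foxp3, the targeted gene, was counted only 14 to 20 times in PBS libraries, 10 to 16 in EarlyDT, 13 to 23 in LateDT and 9 to 19 in FullDT, so at this depth whole-skin counts do not separate depleted from control libraries and depletion cannot be checked from them. Basal keratinocyte markers (Krt5, Krt14, Krt15, Itga6 and Itgb4) summed to 6823 to 9452 CPM (read counts relative to the scaled library size) in all 11 libraries, as skin should give. The library LateDT 1 stood apart in its hair shaft markers, which summed to 2101 CPM against 5239 to 7830 CPM in the other 10, and leaving it out changed no call of a member given here. The study did not record the sex of each mouse, so it was inferred here from counts of Xist and of Y-linked genes. By this measure males and females were mixed in every group.

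Serpins inhibit proteases by offering an exposed loop as bait, which the protease cuts and is then trapped by. Mice carry many Serpina3 genes where humans carry a single one, SERPINA3, whose product α1-antichymotrypsin is an acute phase protein. Of the mouse paralogues, Serpina3n encodes a secreted inhibitor of granzyme B and of cathepsin G, and Serpina3g (also called Spi2A) encodes an inhibitor that acts inside cells on lysosomal cathepsins and is known as a target of interferon-gamma. Against this background the skin libraries divided the paralogues into a pair that was abundant in control skin, Serpina3b and the non-member Serpina3j, and a set that was scarce in control skin and rose by roughly an order of magnitude or more after complete depletion, Serpina3n, Serpina3g, Serpina3f and Serpina3i. Depletion in the early window or the late window alone did not move any of these last 4 genes past the test.

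The members lie within one stretch of chromosome 12 on the plus strand (GRCm38, GENCODE M21). Serpina3b (ENSMUSG00000066364) spans 104127996 to 104139545, Serpina3f (ENSMUSG00000066363) 104214544 to 104221129, Serpina3g (ENSMUSG00000041481) 104236245 to 104241939 and Serpina3i (ENSMUSG00000079014) 104263122 to 104269372. Serpina3n (ENSMUSG00000021091) spans 104406729 to 104414329, and its start lies 278.73 kb from that of Serpina3b. Serpina3m (ENSMUSG00000079012) spans 104338486 to 104394257, starts at the same base as Serpina3k and holds the pseudogene Serpina3l-ps within its bounds. Paralogues can compete for reads: of all 100-base stretches of its transcripts, Serpina3b shared none with another gene, Serpina3n shared 0.204%, Serpina3i 2.25%, Serpina3f 3.4%, Serpina3g 3.49% and Serpina3m 6.09%. These shares are small, so most of each gene's sequence can tell it from its copies, although how the authors treated reads that matched several genes is not given in the sources used here.

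The proximal promoters of 5 members are shown because these genes share sequence upstream and yet differed in their response. RefSeq promoter windows of GRCm38.p6 (250 bases before to 50 after each annotated start, 32851 windows in all) gave entries for Serpina3b, Serpina3f, Serpina3g, Serpina3i and Serpina3n. The sequences below run 5′ to 3′ on the plus strand. Capitals mark the 12-base element CATTTCCTAAGA, the longest run of letters that all 5 windows share (chosen after the sequences had been seen), any match to the STAT binding pattern TTCNNNGAA (the GAS motif), and a TATAAA box at 28 bases before the start.
Serpina3b, chr12:104127864-104127973: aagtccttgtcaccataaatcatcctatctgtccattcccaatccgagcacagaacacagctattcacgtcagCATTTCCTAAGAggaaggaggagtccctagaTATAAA
Serpina3n, chr12:104406577-104406686: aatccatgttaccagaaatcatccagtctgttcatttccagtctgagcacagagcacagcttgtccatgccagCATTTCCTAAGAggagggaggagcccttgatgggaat
Serpina3f, chr12:104214406-104214515: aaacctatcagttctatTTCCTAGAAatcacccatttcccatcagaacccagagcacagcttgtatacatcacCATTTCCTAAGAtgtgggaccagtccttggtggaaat
Serpina3i, chr12:104263012-104263121: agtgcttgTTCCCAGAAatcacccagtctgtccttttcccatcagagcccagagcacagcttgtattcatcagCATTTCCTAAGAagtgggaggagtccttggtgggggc
Serpina3g, chr12:104236087-104236146: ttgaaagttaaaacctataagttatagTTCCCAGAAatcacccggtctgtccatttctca
Serpina3g, chr12:104236170-104236196: ctgcatcaaCATTTCCTAAGAtgtggg

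The shared element began 59 bases before the RefSeq start in Serpina3b, 58 in Serpina3n, 65 in Serpina3f and 37 in Serpina3i. In Serpina3g it began at base 33 of the RefSeq transcript, with the RefSeq start counted as base 1, and 66 bases before the start of the GENCODE gene. With both strands searched it occurred in 12 of the 32851 windows (0.0365%), 7 of them Serpina3 windows, among them those of Serpina3c and of a further Serpina3f start. The GAS pattern was in 8.3% of all windows and, of the 5 members, in Serpina3f, Serpina3g and Serpina3i but not in Serpina3b or Serpina3n. At the corresponding 9 bases, counted from 1 at the 5′ end of TTCNNNGAA with the pattern's base first, Serpina3n differed by C3A alone, and Serpina3b by T2C, C3A and G7T. None of the matches overlapped another within these stretches. The TATAAA box, present in 13.6% of windows, lay 28 bases before the start of Serpina3b. These are matches of letters in short windows, and the libraries hold no measurement of binding.

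Serpina3b was the most abundant member in control skin. It stood at 52.2 and 64.7 CPM in the PBS mice, at 23.6, 22.0 and 33.8 CPM in EarlyDT, at 54.6, 53.3 and 45.4 CPM in LateDT and at 35.0, 32.5 and 21.2 CPM in FullDT. The EarlyDT and FullDT mice lay below every PBS and every LateDT mouse, whereas LateDT overlapped PBS. The log2 difference from PBS was -1.15 (SE 0.21) in EarlyDT, a level 2.21-fold lower, and -0.99 (SE 0.21) in FullDT, a level 1.98-fold lower, against -0.19 (SE 0.21) in LateDT. FullDT and LateDT mice were taken on the same day, and there the log2 difference was -0.79 (SE 0.19). FullDT and EarlyDT, which share the first 2 doses and differ in the doses on P10 and P12 and in age, overlapped, at a log2 difference of 0.16 (SE 0.20). These values chose the family and carry no test. For scale, every mouse of the first group lay below every mouse of the second for 10.3% of the 18375 genes tested between EarlyDT and PBS, for 25.8% between FullDT and PBS, for 16.7% between FullDT and LateDT and for 13.7% between EarlyDT and LateDT. In bulk skin, fewer cells that express a gene and less RNA in each such cell cannot be told apart, here and for every gene below.

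**Figure D1:**
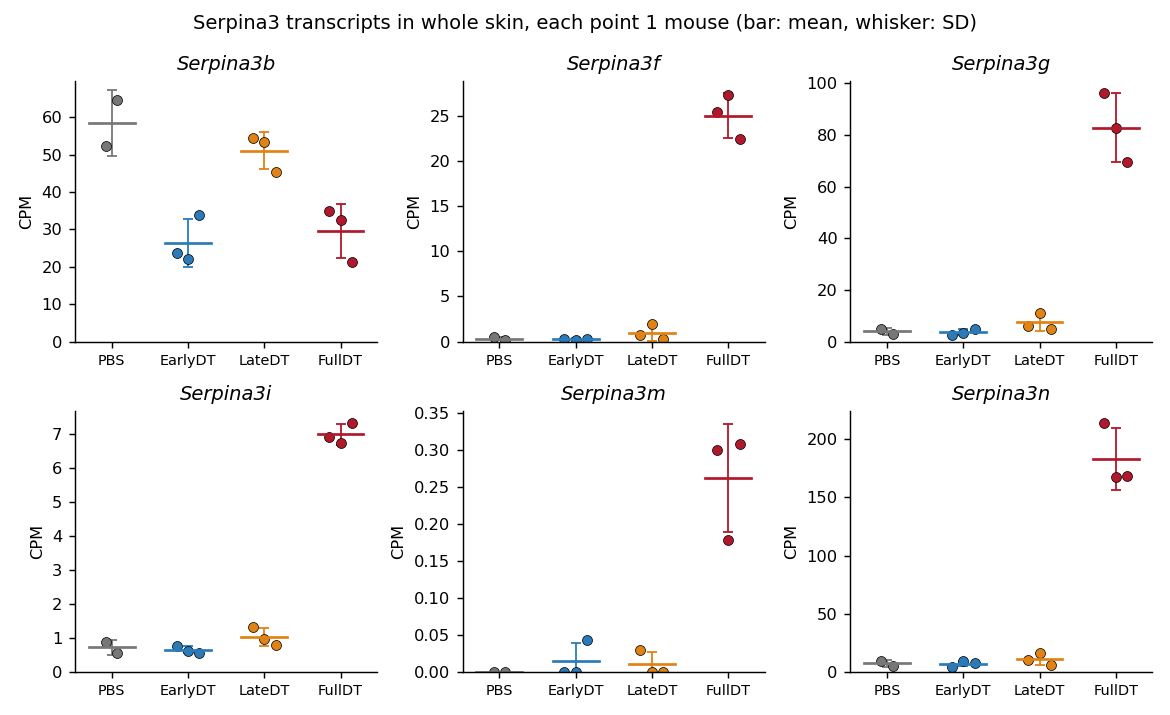
CPM of the 6 members (a panel each, linear axes from 0) in the 4 groups, each point 1 mouse, with the group mean as a bar and the SD as a whisker. Serpina3b is low in EarlyDT and FullDT, while Serpina3f, Serpina3g, Serpina3i and Serpina3n stand apart in the 3 FullDT mice alone, and Serpina3m never passes 0.309 CPM.

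Serpina3n, the granzyme B inhibitor, became the most abundant of the members after complete depletion. It was at 9.53 and 5.38 CPM in PBS, at 4.56, 9.17 and 7.50 CPM in EarlyDT, at 10.5, 16.1 and 6.07 CPM in LateDT and at 214, 167 and 168 CPM in FullDT. Every FullDT mouse lay above every other mouse, and the other 3 groups overlapped. Such separation upwards was seen for 26.8% of genes between FullDT and PBS, 19.2% between FullDT and LateDT and 23.4% between FullDT and EarlyDT. In the fit across all genes it rose by 4.61 log2 units in FullDT against PBS (SE 0.41, edgeR adjusted p = 2.61e-05 by the quasi-likelihood test, adjusted after Benjamini and Hochberg for all 18375 genes), a mean level 24.6-fold higher. Against LateDT the difference was 4.09 (SE 0.33, edgeR adjusted p = 1.60e-05) and against EarlyDT 4.69 (SE 0.34, edgeR adjusted p = 4.65e-06). LateDT alone differed from PBS by 0.52 (SE 0.39, edgeR adjusted p = 0.509) and EarlyDT by -0.08 (SE 0.40, edgeR adjusted p = 1.00).

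Serpina3g, the intracellular cathepsin inhibitor, behaved likewise at a lower level. PBS mice stood at 4.87 and 3.03 CPM, EarlyDT at 2.68, 3.35 and 5.01 CPM, LateDT at 6.20, 10.98 and 5.01 CPM and FullDT at 96.1, 82.7 and 69.6 CPM. All 3 LateDT mice were above both PBS mice, as were those of 15% of the genes tested, and the step from PBS to LateDT, 0.88 log2 units (SE 0.35), did not pass the test (edgeR adjusted p = 0.190). The rise in FullDT did, at 4.38 against PBS (SE 0.36, edgeR adjusted p = 1.58e-05, mean level 21.0-fold higher), 3.50 against LateDT (SE 0.28, edgeR adjusted p = 1.65e-05) and 4.51 against EarlyDT (SE 0.31, edgeR adjusted p = 3.04e-06).

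Serpina3f had the widest span of the members. It was close to absent outside FullDT, with 13 and 5 counts in PBS (0.455 and 0.199 CPM), 4 to 8 counts in EarlyDT (0.131 to 0.343 CPM) and 23, 50 and 10 counts in LateDT (0.685, 1.96 and 0.313 CPM). The FullDT mice gave 592, 917 and 724 counts, or 25.4, 27.2 and 22.4 CPM. The gain over PBS was 6.21 log2 units (SE 0.56, edgeR adjusted p = 2.86e-05, mean level 76.4-fold higher), the 47th highest of 18375 genes, and that over LateDT 4.73 (SE 0.40, edgeR adjusted p = 2.09e-05). With so few control counts the fold over PBS rests on either control mouse, at 126-fold without PBS 1 and 54.9-fold without PBS 2. LateDT exceeded PBS by 1.47 (SE 0.70, edgeR adjusted p = 0.269), with the mouse LateDT 2 well above the other two and the groups overlapping. LateDT 2 also had the highest Serpina3g and Serpina3n of its group, and the highest summed CPM over 19 interferon-gamma response genes, 735 CPM against 633 and 475 CPM. Its macrophage markers were also the highest of the group, at 189 CPM against 126 and 83.3 CPM, and so were its neutrophil markers, at 18.2 CPM against 16.99 and 17.4 CPM, while its T cell markers were not. Without LateDT 2 the log2 difference of Serpina3f from PBS was 0.59.

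Serpina3i moved least of the 4. Its levels were 0.876 and 0.558 CPM in PBS, 0.557 to 0.766 CPM in EarlyDT, 0.783 to 1.31 CPM in LateDT and 6.90, 6.74 and 7.33 CPM in FullDT, again with FullDT clear of the rest and the other groups low. It rose by 3.26 log2 units in FullDT against PBS (SE 0.24, edgeR adjusted p = 9.59e-06, mean level 9.75-fold higher) and by 2.76 against LateDT (SE 0.19, edgeR adjusted p = 6.87e-06), while LateDT differed from PBS by 0.51 (SE 0.27, edgeR adjusted p = 0.333).

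Serpina3m did not pass the filter on low counts and was not tested. It had 7, 6 and 10 counts in the FullDT mice, 1 count in a single EarlyDT and a single LateDT mouse, and none in the other 6 libraries. FullDT lay above the rest here as well. With a floor of 3 counts in each library, the FullDT mean of 0.262 CPM was at least 2.34-fold higher than PBS and at least 2.62-fold higher than LateDT. Because Serpina3m starts at the same base as Serpina3k, reads of the first exon cannot be told apart, although Serpina3k itself had a single count in the whole series.

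Read together by comparison, none of the 4 tested members was called in EarlyDT against PBS, where 1 gene of 18375 was called at all (0.00544%, with 872 at an unadjusted p under 0.05), and none in LateDT against PBS, where 4.55% of genes were called, 1.86% higher and 2.69% lower. In FullDT against PBS all 4 were called higher, against 12.1% of genes called higher, 9.39% lower and 21.5% in either direction. The same 4 were called higher in FullDT against LateDT, where 10.7% of genes were called higher, 6.11% lower and 16.8% in all, and in FullDT against EarlyDT, where 13.2% were called higher and 23.1% in all. None was called between EarlyDT and LateDT, where 6.38% of genes were called. The first 3 comparisons share the same 2 PBS mice, and those involving FullDT share the same 3 FullDT mice. All 4 genes pass the low-count filter also when the FullDT libraries are left out.

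**Figure D2:**
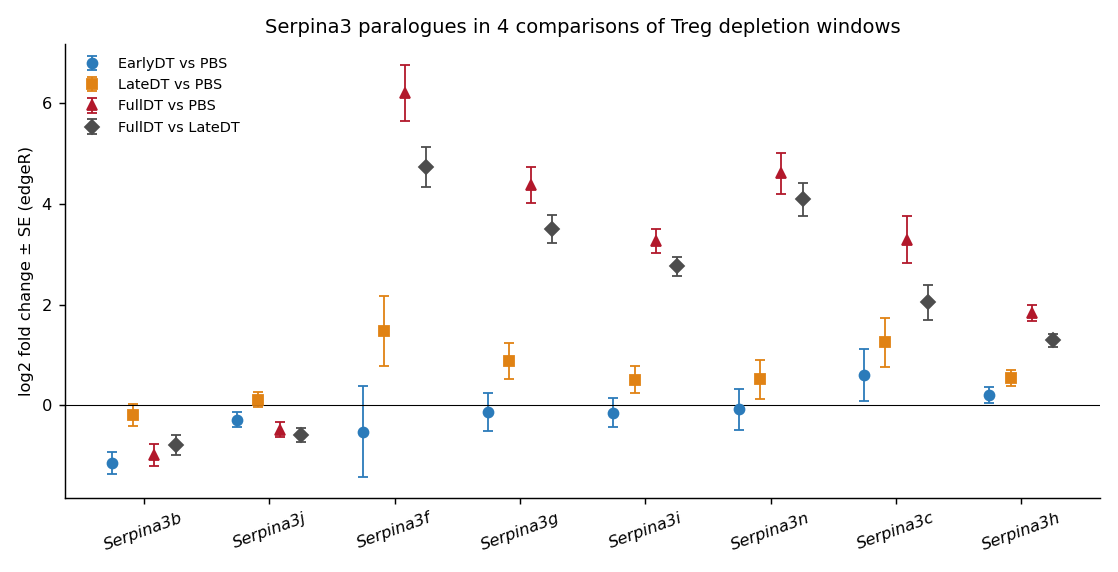
Log2 fold change (points, edgeR) with its SE (whiskers) for 5 members and the non-members Serpina3j, Serpina3c and Serpina3h in 4 comparisons, marked by colour and shape. FullDT values rise from 1.83 in Serpina3h to 6.21 in Serpina3f, whereas Serpina3b and Serpina3j lie below 0 in FullDT.

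Levels per kilobase of exon allow the members to be ranked against each other. In PBS skin the order was Serpina3b at 28.2 ± 4.28 CPM per kb (SD, n = 2), Serpina3n at 3.61 ± 1.42, Serpina3g at 1.88 ± 0.618, Serpina3i at 0.322 ± 0.101 and Serpina3f at 0.143 ± 0.0791, and no neighbours in this order overlapped over the 2 mice. In FullDT the order became Serpina3n at 88.7 ± 12.8 CPM per kb (SD, n = 3), Serpina3g at 39.3 ± 6.31, Serpina3b at 14.3 ± 3.54, Serpina3f at 10.9 ± 1.07 and Serpina3i at 3.14 ± 0.136. There Serpina3b and Serpina3f overlapped, and the other neighbours did not. In EarlyDT and LateDT the PBS order held for the means, with Serpina3n and Serpina3g overlapping in both, and with Serpina3i and Serpina3f overlapping in LateDT.

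The 8 Serpina3 genes outside the named members placed these patterns in the cluster, and 5 of them passed the filter. Serpina3j, the most abundant Serpina3 transcript of control skin, was at 105 and 124 CPM in PBS, 81.1 to 108 CPM in EarlyDT, 115 to 138 CPM in LateDT and 66.4 to 91.6 CPM in FullDT. It was lower in FullDT than in PBS by 0.49 log2 units (log2 difference -0.49, SE 0.15, edgeR adjusted p = 0.0387) and than in LateDT (-0.60, SE 0.13, edgeR adjusted p = 0.0112), and it differed from PBS by -0.29 in EarlyDT (SE 0.15, edgeR adjusted p = 1.00). Serpina3j was therefore low in the same FullDT mice as Serpina3b, with a smaller difference.

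Serpina3c and the transcribed pseudogene Serpina3h rose with the 4 members in FullDT. Serpina3c went from 0.946 and 0.996 CPM in PBS to 8.76 to 9.95 CPM in FullDT (3.29 log2 units, SE 0.47, edgeR adjusted p = 0.000597). Serpina3h went from 2.79 and 4.41 CPM to 12.6 to 13.3 CPM (1.83, SE 0.16, edgeR adjusted p = 2.02e-05), and 3.6% of its 100-base stretches were shared with Serpina3f, Serpina3g or Serpina3i. The pseudogene Serpina3l-ps, which lies inside the bounds of Serpina3m, went the other way, with 10 and 13 counts in PBS, 8 or 9 in EarlyDT, 2 to 6 in LateDT and 1 or 2 in FullDT, and was called lower in LateDT (edgeR adjusted p = 0.0402) and in FullDT (edgeR adjusted p = 0.00205) against PBS. Serpina3e-ps passed no test, at 0.475 to 0.841 CPM in 9 libraries and lower in LateDT 1 and LateDT 3.

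**Figure D3:**
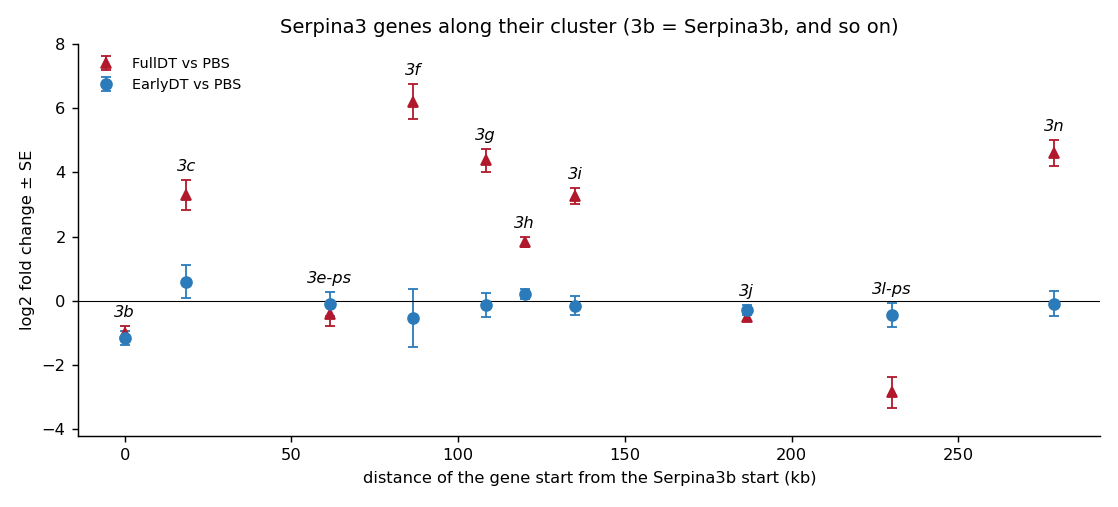
Log2 fold change with its SE in FullDT and EarlyDT against PBS (vertical axis) for the 10 Serpina3 genes that passed the filter, placed by the distance of their lower-numbered end from that of Serpina3b in kb (horizontal axis). Genes that rose in FullDT (3c, 3f, 3g, 3h, 3i, 3n) and genes that did not (3b, 3e-ps, 3j, 3l-ps) are interspersed along the cluster, and EarlyDT points stay between -1.15 and 0.60.

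The make-up of Serpina3 RNA changed accordingly. Summed over all 14 genes, Serpina3 transcripts took 179 and 203 CPM in PBS, 124 to 146 CPM in EarlyDT, 179 to 230 CPM in LateDT and 379 to 493 CPM in FullDT. EarlyDT was below and FullDT above all other groups. Among single genes, 10.3% lay wholly below PBS in EarlyDT and 26.8% wholly above PBS in FullDT. The sum holds Serpina3b, whose fall chose the family. From PBS to EarlyDT the mean of Serpina3b went from 58.5 to 26.4 CPM and that of the family from 191 to 139 CPM. The low EarlyDT total and the Serpina3b shares below thus partly restate that choice. Serpina3b supplied 29.1 to 31.9% of the family's counts in PBS, 16.1 to 23.1% in EarlyDT, 23.2 to 27.5% in LateDT and 5.60 to 7.63% in FullDT. Serpina3j supplied 58.4 to 61.1% in PBS and 17.5 to 20.3% in FullDT, where Serpina3n supplied 39.3 to 44.4% and Serpina3g 18.4 to 19.5%, from 2.65 to 5.31% and 1.49 to 2.71% in PBS. These shares are of counts, not of molecules per length.

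**Figure D4:**
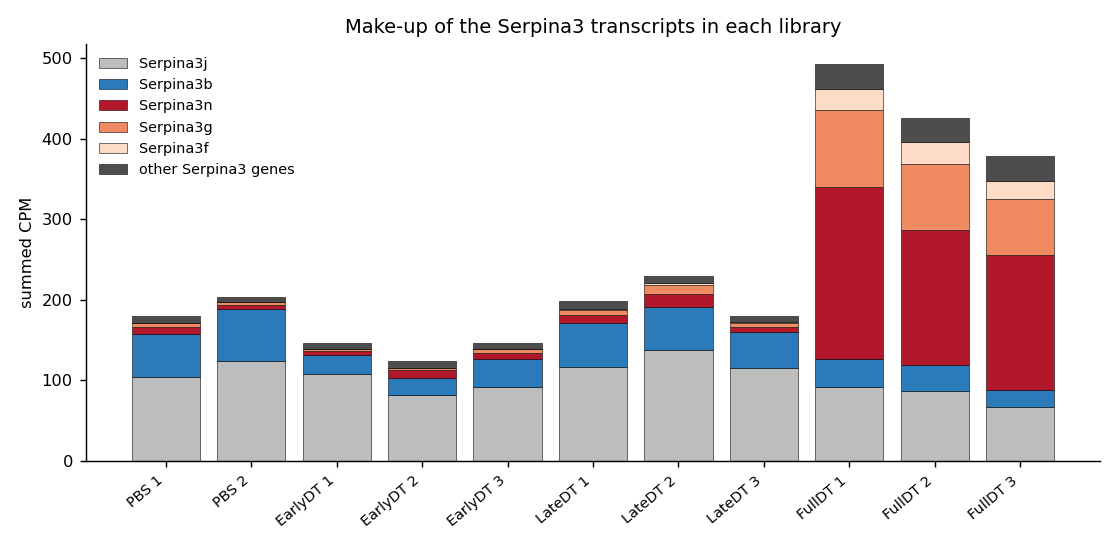
Summed CPM of all Serpina3 genes in each of the 11 libraries, as bars stacked by gene from 0. Serpina3j and Serpina3b fill most of every PBS, EarlyDT and LateDT bar, and Serpina3n, Serpina3g and Serpina3f most of the FullDT bars, which reach 379 to 493 CPM.

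Potential target proteases were followed in 3 lists. Of 12 serine proteases of immune cell granules that could be tested, none was called in EarlyDT or LateDT against PBS and 5 rose in FullDT (median log2 fold change of the list 0.41, against -0.01 over all genes). Among all genes tested, 12.1% were called higher in FullDT against PBS, and 4.55% in either direction in LateDT. Granzyme B (Gzmb), a target of Serpina3n, had 0 to 4 counts in each PBS, EarlyDT and LateDT library and 593 to 901 in FullDT, which is 25.8 ± 0.789 CPM (SD, n = 3) and at least 230-fold higher than the floor of 3 counts in PBS (edgeR adjusted p = 1.42e-06). Gzma was at least 154-fold higher (edgeR adjusted p = 2.92e-06). Cathepsin G (Ctsg), the neutrophil enzyme that Serpina3n also inhibits, stayed at 2 to 14 counts throughout (edgeR adjusted p = 0.820 in FullDT against PBS), and neutrophil elastase (Elane) never passed 4 counts.

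Of 12 lysosomal cathepsins tested, the kind of protease that Serpina3g inhibits, 10 rose in FullDT against PBS and none fell, with a median log2 fold change of 0.42 and values of 0.18 to 2.37 over the 12, and none was called in EarlyDT or LateDT. In FullDT 12.1% of all genes were called higher and 9.39% lower. The highest of the cathepsins was Ctss, the cathepsin of antigen-presenting cells (2.37, SE 0.49, edgeR adjusted p = 0.00548). Ctsw, a cathepsin of cytotoxic lymphocytes, showed 3.26 to 3.59 CPM in PBS and 9.53 to 11.1 CPM in FullDT (1.60, SE 0.13, edgeR adjusted p = 1.39e-05), and Ctsb, expressed broadly, 1279 to 1295 CPM and 1729 to 1742 CPM (0.43, SE 0.07, edgeR adjusted p = 0.00143). Of 11 kallikrein-related peptidases, enzymes of the shedding epidermis, 4 were called higher and 1 lower in FullDT, with a median log2 fold change of 0.21, where 12.1% of all genes were called higher and 9.39% lower. Klk13 was the lower one (-0.42, SE 0.12, edgeR adjusted p = 0.0240), and the higher ones included Klk6 at 44.7 to 50.6 CPM in PBS and 84.2 to 128 CPM in FullDT (1.17, SE 0.16, edgeR adjusted p = 0.000541) and Klk9 (0.76, SE 0.10, edgeR adjusted p = 0.000337). In LateDT 2 kallikreins were called higher, Klk10 (0.55, SE 0.07, edgeR adjusted p = 0.00171) and Klk7 (0.37, SE 0.08, edgeR adjusted p = 0.0329), where 1.86% of all genes were called higher.

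Members of the Serpina3 family are known to respond to interferon-gamma, to interleukin 6 through STAT3, and to glucocorticoids, and genes of these responses were read beside them. All 19 interferon-gamma response genes were called higher in FullDT against PBS, with a median log2 fold change of 3.38, and 11 of the 19 in LateDT against PBS, with a median of 0.98 against 0.00 over all genes, whereas none was called in EarlyDT. The share of all genes called higher was 12.1% in FullDT and 1.86% in LateDT. Psmb9, an immunoproteasome subunit, went from 4.86 and 5.15 CPM in PBS to 9.77 to 13.6 CPM in LateDT (1.26, SE 0.16, edgeR adjusted p = 0.00216) and 61.3 to 77.6 CPM in FullDT (3.80, SE 0.17, edgeR adjusted p = 1.11e-06). Ifng itself had 0 to 4 counts outside FullDT and 54 to 82 counts in FullDT. In LateDT against PBS, then, 11 of 19 interferon-gamma response genes and none of the 4 tested Serpina3 members were called, and this difference was not itself tested. The members' log2 differences there were 1.47 for Serpina3f, 0.88 for Serpina3g, 0.52 for Serpina3n and 0.51 for Serpina3i, beside the list median of 0.98. A call depends on the spread and counts of each gene as well as on the size of its difference.

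Of 21 acute phase and STAT3 response genes tested, 16 rose in FullDT against PBS and none fell (median 1.19), 2 rose and 1 fell in LateDT, and none was called in EarlyDT. For this list and the next, the shares of all genes called were 12.1% higher and 9.39% lower in FullDT. In LateDT they were 1.86% higher and 2.69% lower. Saa3, an acute phase serum amyloid, was at 0.239 and 0.385 CPM in PBS, 0.783 to 1.88 CPM in LateDT (1.96, SE 0.40, edgeR adjusted p = 0.0225) and 4.28 to 4.80 CPM in FullDT (3.81, SE 0.37, edgeR adjusted p = 4.52e-05). Ceruloplasmin (Cp) was at 7.05 and 8.23 CPM in PBS and 21.6 to 24.3 CPM in FullDT (1.56, SE 0.11, edgeR adjusted p = 8.31e-06). Of 11 glucocorticoid response genes 6 rose in FullDT and 2 in LateDT, and Hsd11b1, which makes active glucocorticoid within tissue, went from 1.04 and 1.75 CPM in PBS to 13.6 to 16.7 CPM in FullDT (3.38, SE 0.23, edgeR adjusted p = 5.42e-06). These lists were chosen with earlier results of these data known, and which of the signals acts on a Serpina3 gene was not tested.

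**Figure D5:**
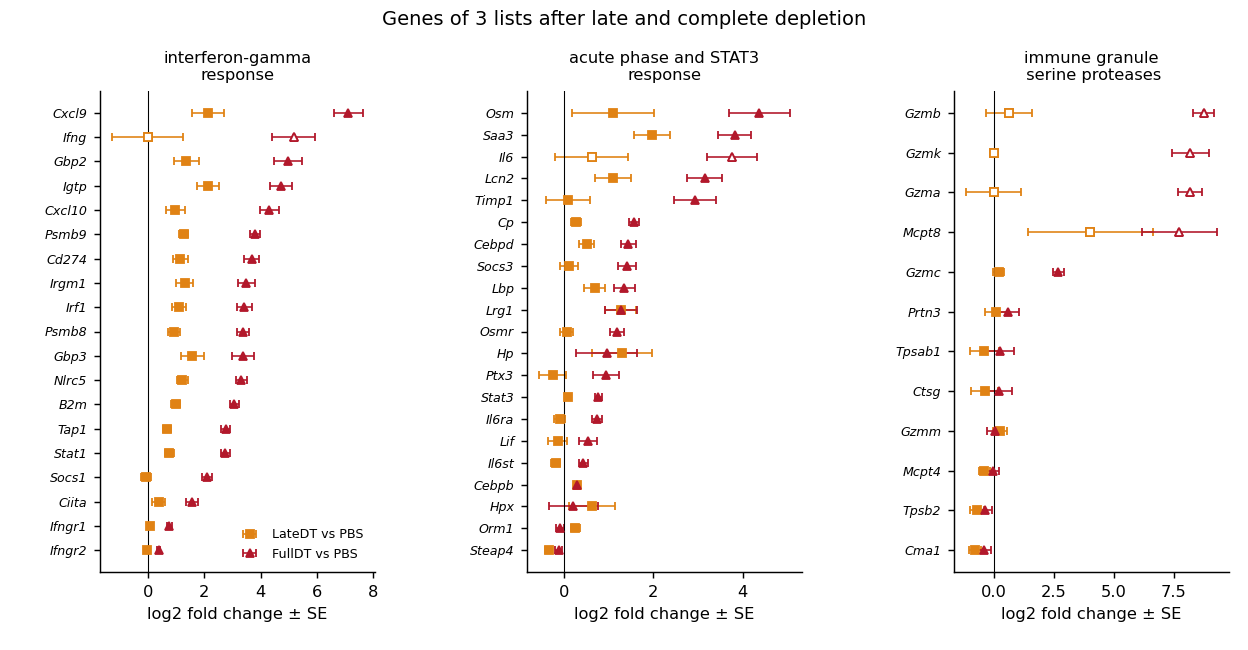
Log2 fold change with its SE (horizontal axis) of every tested gene of 3 lists in LateDT (squares) and FullDT (triangles) against PBS, genes ordered by their FullDT value. Open symbols mark genes with at most 3 counts in each PBS library, whose fitted fold change depends on the prior count, and Gzmk in LateDT has no SE. All 19 interferon-gamma response genes lie to the right of 0 in FullDT.

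Markers of T cells, cytotoxic lymphocytes, macrophages and neutrophils moved with the 4 members in FullDT, while those of mast cells did not. This is given as a measured fact whose part in the Serpina3 values was not tested. All 5 T cell markers were called higher in FullDT against PBS and their sum went from 10.8 to 14.3 CPM in PBS to 34.4 to 40.9 CPM in FullDT, and in LateDT none was called, at 15.0 to 18.7 CPM. All 5 markers of cytotoxic lymphocytes were called higher in FullDT, with sums of 1.47 to 1.75 CPM in PBS and 19.8 to 28.5 CPM in FullDT, and 3 of the 5 had at most 3 counts in every PBS library. Macrophage markers gave 3 of 5 higher, with sums of 148 to 196 CPM and 334 to 459 CPM, and neutrophil markers 4 of 4 tested, with sums of 13.2 to 14.0 CPM and 32.1 to 39.5 CPM. Markers of resident cells moved too. In FullDT 3 of 5 suprabasal keratinocyte, 3 of 6 fibroblast, 4 of 5 melanocyte and 2 of 4 sebaceous gland markers were called lower, and 3 of 8 inner root sheath, 2 of 4 outer root sheath and companion layer and 1 of 5 basal keratinocyte markers were called higher. Over all genes 12.1% were called higher and 9.39% lower. Of 4 endothelial markers 1 was called higher and 2 lower in FullDT, and of 4 skeletal muscle markers 1 was called higher. No hair shaft or adipocyte marker was called. In LateDT, then FullDT, against PBS, median log2 fold changes were -0.64 and -0.66 (suprabasal), 0.25 and 0.22 (inner root sheath), 0.18 and 0.21 (basal). They were -0.58 and -0.86 (fibroblast), -0.11 and -0.87 (melanocyte), -0.10 and -0.39 (sebaceous gland), 0.20 and 0.73 (outer root sheath and companion layer). For endothelium the medians were 0.06 and -0.29, and for skeletal muscle 1.42 and 0.59. Beside the low Serpina3b of EarlyDT, no marker was called against PBS, in a comparison with 1 call among all genes, but some sums lay below both PBS mice. Melanocyte markers summed to 1106 to 1292 CPM in PBS, 760 to 1021 CPM in EarlyDT, 990 to 1148 CPM in LateDT and 685 to 726 CPM in FullDT, so that EarlyDT and FullDT lay below PBS as for Serpina3b, although EarlyDT overlapped LateDT. Mast cell markers summed to 203 to 213 CPM in PBS, 147 to 184 CPM in EarlyDT, 108 to 174 CPM in LateDT and 154 to 179 CPM in FullDT. Each depleted group thus lay below PBS for mast cell markers, and in FullDT 1 of the 5 was called lower. Neutrophil markers summed to 8.81 to 11.7 CPM in EarlyDT, against the 13.2 to 14.0 CPM of PBS and 16.99 to 18.2 CPM in LateDT. Their part in the Serpina3b values was not tested.

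For each member that passed the filter, the 5 genes of 13897 with the most similar log2 CPM over the 11 libraries were named. For Serpina3f these were Gbp2, Psmb10, Batf2, Cxcl9 and Snx10 (Pearson r 0.994 to 0.995), and for Serpina3g Batf2, Parp10, Cxcl10, Tcaf2 and Gbp2 (r 0.993 to 0.995). For Serpina3i they were Pyy, Gzmb, Cp, Ifngr1 and Ccl8 (r 0.989 to 0.993), and for Serpina3n Col6a5, Il2rg, C3, Dram1 and Lrmp (r 0.991 to 0.994). The libraries fall into FullDT and the rest for all of these genes, which sets r close to 1, and all values share library and depth. With the group means taken out, r was 0.900 to 0.982 over the 5 partners of Serpina3f, 0.792 to 0.940 over those of Serpina3g, 0.702 to 0.872 over those of Serpina3i and 0.798 to 0.918 over those of Serpina3n. The partners were picked by r over the same 11 libraries, deviations within groups included. These values are therefore raised by that choice and are no check on it.

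Gbp2, an interferon-induced GTPase, shows the pattern of Serpina3f and Serpina3g in values. It was at 5.86 and 11.9 CPM in PBS, 6.01 to 9.98 CPM in EarlyDT, 14.2 to 39.1 CPM in LateDT and 225 to 331 CPM in FullDT. C3, the central component of complement and one of the 5 genes most like Serpina3n, was at 2.23 and 5.39 CPM in PBS, 2.63 to 7.84 CPM in LateDT and 254 to 336 CPM in FullDT. Among the members themselves, deviations from the group means correlated at 0.85 for Serpina3f with Serpina3g and at 0.84 for Serpina3g with Serpina3n, but at 0.35 for Serpina3f with Serpina3i and 0.09 for Serpina3g with Serpina3i.

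The genes most like Serpina3b formed a different set: Snrpf, Atp6v0d2, Gm2115, Npy and Smim5 (r 0.890 to 0.908). Atp6v0d2, a subunit of the vacuolar proton pump, was at 7.89 and 7.99 CPM in PBS, 2.93 to 5.40 CPM in EarlyDT, 6.67 to 8.31 CPM in LateDT and 3.52 to 6.35 CPM in FullDT, so that EarlyDT and FullDT lay below PBS and LateDT as for Serpina3b. Npy, the precursor of neuropeptide Y, was at 7.49 and 7.81 CPM in PBS, 5.32 to 6.60 CPM in EarlyDT, 6.32 to 8.17 CPM in LateDT and 4.64 to 6.47 CPM in FullDT. Since all 5 were picked for this likeness, their levels are a description with no test. With group means taken out, which does not undo that choice, r with Serpina3b was 0.803 for Snrpf, 0.896 for Smim5 and 0.279 for Gm2115. For Serpina3j, its neighbour in level and not picked in this way, r was 0.63.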

How the data were processed

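RNA from whole-skin biopsies of 11 mice was sequenced, and the authors deposited a table of raw counts per gene. Per the labels and the submitters' processing notes, reads were trimmed with Trimmomatic 0.36, aligned to GRCm38 with STAR 2.5.2b and counted with featureCounts of Subread 1.5.2, while strand, annotation release and the treatment of reads matching several genes are not given in the sources used here. Groups were taken from the treatment labels, and mice were separate animals. Of 49315 genes, 18375 passed edgeR's filterByExpr and were tested in edgeR 4.0.16 (R 4.3.3) with TMM scaling, a mean for each of the 4 groups and the quasi-likelihood F test, with Benjamini-Hochberg adjustment at 0.05. CPM values are on the TMM-scaled library sizes, also for genes that failed the filter, and CPM per kb divides by the union of GENCODE M21 exons. The SE was taken from the F statistic, as the size of the log2 difference over its root. Log2 CPM for likeness used a prior count of 2 and genes with a mean of at least 50 counts. The folds printed as N-fold are ratios of mean CPM, and a floor of 3 counts per library stood in where every library of the lower group had at most 3, which covers counting error only. Genes were named by rule: the members, the other Serpina3 and clade A genes past the filter, the 5 genes most like each member, and for each list the 2 genes with the smallest p in a comparison. Ctsg, Elane, Ifng, Ctss and Klk13 were added with their values seen. Whether the low-count filter passed the members without FullDT was examined after seeing the data. The members and lists were chosen with earlier results of these data known. The script was tested on simulated data. Alternatives were DESeq2 1.42.0, other scalings and filters, the 2 groups alone, the inferred sex added to the model and the omission of each mouse in turn. Depth was 23377571 to 34159435 counts per library. With 2 or 3 mice a group, the adjusted p values rest on a spread shared over genes and groups. Age and window cannot be told apart between EarlyDT and the later groups, nor in full against PBS.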

Additional observations from a re-analysis of the deposited data

How the results depend on the processing

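The number of the 4 tested members called did not change with scaling, filter, DESeq2, sex or a left-out mouse in FullDT against PBS, LateDT or EarlyDT, where it was 4 throughout, except that the filter of 10 counts in every library leaves out Serpina3f and so gives 3. In LateDT against PBS 3 members were called with no filter and none otherwise, and in EarlyDT against LateDT 3 were called with no filter, 1 with DESeq2, and 0 to 2 with each mouse left out, the 2 being Serpina3f and Serpina3g without LateDT replicate 3. The low value of Serpina3b kept its direction in EarlyDT and FullDT under each setting run. In EarlyDT against PBS, where no member was called, the direction reversed without PBS replicate 1 for Serpina3f (0.21), Serpina3g (0.26), Serpina3i (0.23) and Serpina3n (0.40), without EarlyDT replicate 1 for Serpina3g (0.06) and Serpina3n (0.16), and with sex as a covariate for Serpina3n (0.0108), and the cause was not tested. Their lowest log2 values with a mouse left out were -0.97 for Serpina3f, -0.42 for Serpina3g, -0.42 for Serpina3i and -0.43 for Serpina3n, all without PBS replicate 2. In LateDT against PBS, leaving out a mouse gave 0.59 to 2.21 for Serpina3f, 0.50 to 1.27 for Serpina3g, 0.23 to 0.88 for Serpina3i and 0.15 to 1.00 for Serpina3n, with no call, and in FullDT against PBS 5.76 to 6.94 for Serpina3f. Of the counts for gene lists, 962 stayed within 1.5 times the main count and 130 moved. Ranked by Spearman's rho, the top 100 still held all 5 of the genes named for Serpina3b and Serpina3g, 4 of 5 for Serpina3f, and 2 of 5 each for Serpina3i and Serpina3n. No paired analysis was possible because the labels give no replicate numbers, and those used here only name the mice in the order of their records. With 2 control mice, small differences from PBS rest on either animal, and genes with a few counts per library, such as Serpina3m, Serpina3l-ps and Ifng, are limited by depth.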

Other observations

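Serpins outside the Serpina3 cluster moved in other ways. Of 5 further clade A serpins that could be tested, Serpina12 (vaspin, an adipokine) was at 31.2 and 34.0 CPM in PBS, 16.2 to 19.0 CPM in LateDT and 9.05 to 11.4 CPM in FullDT, with log2 fold changes against PBS of -0.92 (SE 0.13, edgeR adjusted p = 0.00278) and -1.68 (SE 0.13, edgeR adjusted p = 1.11e-05). Serpina9 was at 18.2 and 19.1 CPM in PBS, 8.85 to 10.2 CPM in LateDT and 9.005 to 10.7 CPM in FullDT, lower by -0.98 (SE 0.10, edgeR adjusted p = 0.000767) and -0.89 (SE 0.10, edgeR adjusted p = 0.000124). Neither was called in EarlyDT, at 23.9 to 31.9 CPM for Serpina12 and 15.6 to 18.0 CPM for Serpina9. EarlyDT mice were younger than the other depleted groups, so between EarlyDT and those groups age cannot be told apart from the window. LateDT and FullDT mice were taken on the same day. There every FullDT mouse lay below every LateDT mouse for Serpina12, as for 16.7% of genes, whereas Serpina9 overlapped. Serpina10, an inhibitor of coagulation factors, was called higher in FullDT against PBS (2.92, SE 0.50, edgeR adjusted p = 0.00187) at 0.927 to 1.10 CPM, and Serpina1e and Serpina11 passed no test against PBS.

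Of 17 clade B serpins, which act inside cells, 3 were called lower in LateDT against PBS, where 2.69% of all genes were, and in FullDT 2 were called higher and 5 lower, against 12.1% and 9.39% of all genes, so the share called higher was near that of all genes. The clade led with Serpinb12, an epidermal serpin (-3.49 in FullDT, SE 0.26, edgeR adjusted p = 1.01e-05, and -2.23 in LateDT, SE 0.24, edgeR adjusted p = 0.00103), and with Serpinb3a in LateDT (-4.92, SE 0.45, edgeR adjusted p = 0.00053). Serpinb3a had 90 to 94 counts in PBS, only 1 to 5 in LateDT and 31 to 65 in FullDT. The size of its LateDT difference therefore rests on few counts. Serpinb6b rose in FullDT (1.92, SE 0.23, edgeR adjusted p = 0.000173). Of 10 serpins of other clades, Serping1, the C1 inhibitor of complement, rose from 46.1 and 49.9 CPM in PBS to 151 to 168 CPM in FullDT (1.73, SE 0.23, edgeR adjusted p = 0.00041), and Serpinf1 was lower, at 73.1 and 81.1 CPM against 39.7 to 46.3 CPM (-0.81, SE 0.21, edgeR adjusted p = 0.0204). None of the serpins of these lists was called in EarlyDT against PBS.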
